A study of Mus musculus with 10 samples.

Results

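The immediate early transcription factors described here are Fos, Fosb, Jun, Junb, Egr1, Egr2, Egr3, Ier2, Atf3 and Nr4a1, which were taken by gene symbol and make up 10 of the 35275 genes in the expression table. All 10 are annotated as protein coding and all passed the filter on low values. Whole lungs of CD1 mouse pups at postnatal day 6 were profiled by RNA-Seq. Heterozygous pups (Dll4+/-) carried a lacZ reporter in place of 1 allele of Dll4, which encodes an endothelial ligand of Notch receptors, and were compared with Dll4+/+ littermates. The loss affected every cell of the animal, and no other allele or treatment is given in the labels. Each genotype had 4 libraries with values, 2 labelled female and 2 labelled male, named Dll4+/- replicates 1 to 4 and Dll4+/+ replicates 3 to 6. The other 2 Dll4+/+ samples of the series were not analysed here. According to the study's methods, pups were euthanized with pentobarbital and RNA was taken from the lung, and the sources used here do not give the time from death to lysis.

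Immediate early genes are transcribed within minutes of a stimulus without new protein synthesis, because the factors that switch them on are already present in the cell. Serum response factor with its ternary complex partners acts through CArG boxes, and CREB family factors act through sites with the core TGACG. Fos and Jun proteins pair through leucine zippers to form the AP-1 complex, Egr proteins are zinc finger factors that bind GC-rich sites, and Nr4a1 is an orphan nuclear receptor. Their mRNAs are short-lived, and they are known to respond to growth factors, stretch, flow, hypoxia and tissue handling.

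Recovered depth ranged from 17201662 to 22927840 fragments per library. At a transcript length of 2000 bases, 3 fragments corresponded to between 0.0654 and 0.0872 FPKM (fragments normalized to exon length and library size). Dll4 itself was 14.8 ± 4.36 FPKM (SD, n = 4) in Dll4+/- lungs and 27.6 ± 4.12 in Dll4+/+ lungs, and every Dll4+/- library lay below every Dll4+/+ library (two-sided exact permutation p = 0.0286, the smallest that 4 against 4 libraries allow). Lung markers were present, with alveolar type II markers summing to 13373 to 40606 FPKM and endothelial markers to 704 to 1365 FPKM per library. Dll4+/- replicate 1 stood apart, with a median Spearman correlation of 0.919 with the other libraries, and Dll4+/- replicate 4 (0.956) and Dll4+/+ replicate 3 (0.964) followed, against 0.981 to 0.985 for the rest. The library labelled female Dll4+/- replicate 2 went against its label, with Xist at 0.273 FPKM and the Y-linked Ddx3y at 20.3 FPKM.

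The promoters of 7 of the 10 members were matched in RefSeq windows that run from 250 bases before a start site to 50 bases from it (GRCm38.p6). Egr1, Egr3 and Ier2 had no matched window and were not searched. Bases more than 250 before a start were not searched in any member. The windows of Fos, Fosb, Nr4a1 and Egr2 are shown in part because they hold motifs that CREB family factors, serum response factor and Egr factors are known to bind. Each is printed 5′ to 3′ along the gene's own strand, with positions counted back from the start site. Capitals mark TGACG or its reverse complement, the Egr-type motif GCGNGGGCG or its reverse complement, TATAAA in Fos, and the CArG box in Egr2.
Fos, chr12:85473750-85473889, plus strand, bases -140 to -1: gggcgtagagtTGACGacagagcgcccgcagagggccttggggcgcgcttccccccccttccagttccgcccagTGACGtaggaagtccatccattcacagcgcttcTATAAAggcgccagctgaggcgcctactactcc
Fosb, chr7:19310055-19310125, minus strand, bases -80 to -10: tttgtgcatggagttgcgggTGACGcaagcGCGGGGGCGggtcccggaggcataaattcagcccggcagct
Nr4a1, chr15:101266596-101266845, plus strand, bases -250 to -1: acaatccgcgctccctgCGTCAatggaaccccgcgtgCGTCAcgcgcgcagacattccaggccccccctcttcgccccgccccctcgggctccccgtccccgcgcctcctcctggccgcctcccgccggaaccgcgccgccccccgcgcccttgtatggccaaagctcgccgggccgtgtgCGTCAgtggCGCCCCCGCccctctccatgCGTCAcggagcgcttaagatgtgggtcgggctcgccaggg
Egr2, chr10:67537787-67537816, plus strand, bases -82 to -53: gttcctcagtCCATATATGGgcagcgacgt

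TGACG, searched on both strands, was in the windows of 6 of these 7 members (Fos, Fosb, Junb, Egr2, Atf3 and Nr4a1, but not Jun) and in 20.8% of 32851 windows in all. Nr4a1 held it 4 times, at -233, -213, -69 and -40, and Fos at -129 and -66. The palindrome TGACGTCA, which contains TGACG, was in 1.79% of windows and in 0 of these 7 members. The AP-1 motif TGANTCA was in 7.81% of windows and the Nr4a1-type motif AAAGGTCA in 1.51%, and neither was found in these 7 members. GCGNGGGCG was in 5.55% of windows and in those of Fosb (-50) and Nr4a1 (-60). A CArG box was in 1.63% of windows and, among these 7 members, in Egr2 alone. Egr2 has 5 annotated starts, 4 of them with a match, whereas the share counts single windows. TATAAA was in 13.6% of windows and in those of Fos (-33) and Junb. A match describes letters in the window and was not tested as a binding site.

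FPKM values are per length and allow the members to be ordered. In Dll4+/+ lungs the mean levels fell from Ier2 (121 FPKM) through Jun (85.7), Nr4a1 (83.1), Egr1 (40.6), Junb (38.7) and Fos (17.1) to Atf3 (4.27), Egr3 (2.48), Fosb (1.29) and Egr2 (0.930). The range of Nr4a1 over Dll4+/+ libraries overlapped those of Ier2, Jun, Egr1 and Junb, so its place in the order is loose. The ranges of Egr1 and Junb also overlapped each other. Fos lay below Junb and above Atf3 in every Dll4+/+ library, whereas Atf3, Egr3 and Fosb each overlapped the next in the order. The plot of each member by genotype shows these levels library by library.

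**Figure D1:**
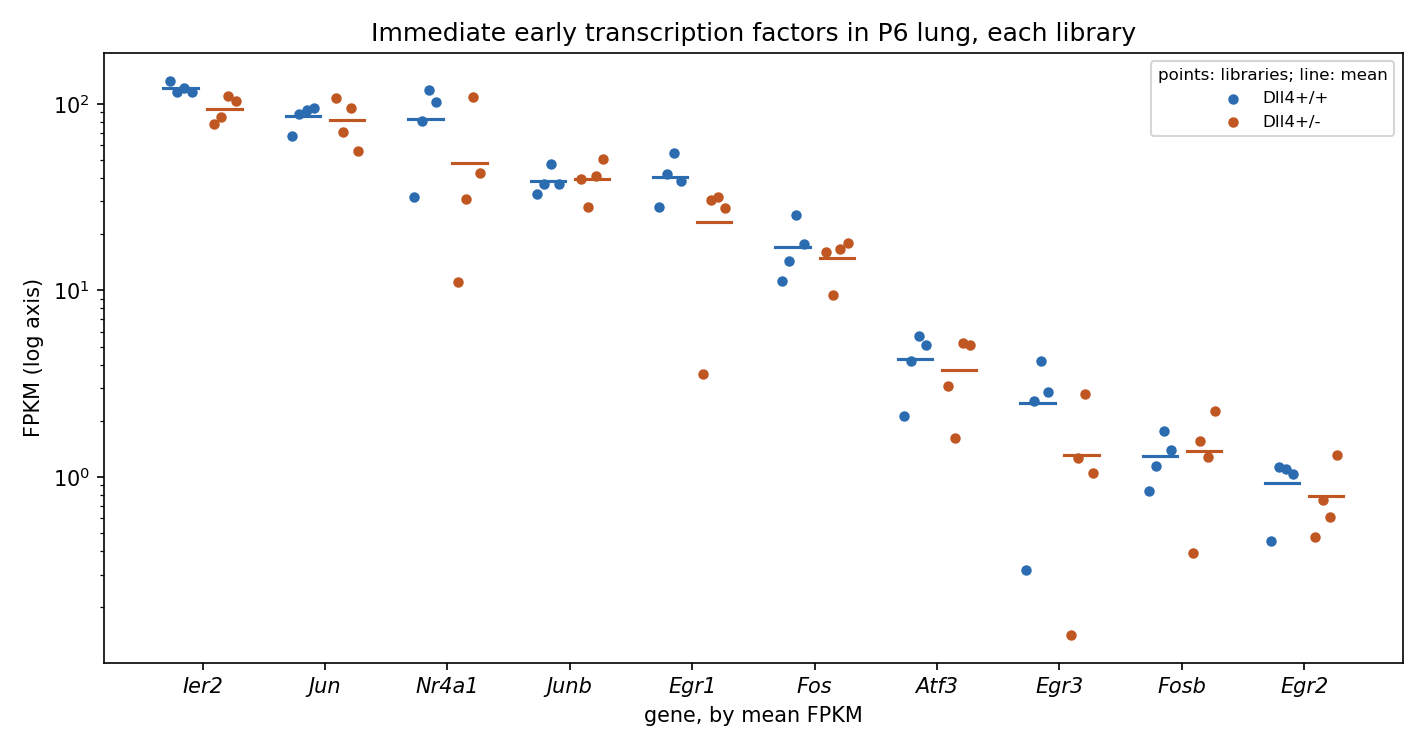
FPKM of the 10 members in each of the 8 libraries, by genotype, with 4 libraries per genotype. Ier2 is the member whose genotypes do not overlap, from 78.1 to 110.3 in Dll4+/- against 115.3 to 132.9 in Dll4+/+. Egr1 spreads widely through a low value in Dll4+/- replicate 1. Nr4a1 spreads widely in both genotypes, from 11.1 to 108.2 in Dll4+/- and from 31.7 to 117.9 in Dll4+/+.

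Of the AP-1 genes, Fos (ENSMUSG00000021250, chromosome 12, 85473890 to 85477273, plus strand, GRCm38) encodes the founding member of the Fos proteins. Its FPKM in Dll4+/+ replicates 3 to 6 was 11.2, 14.4, 25.3 and 17.7, and in Dll4+/- replicates 1 to 4 it was 16.1, 9.42, 16.6 and 17.9. The groups overlapped throughout, with Dll4+/- replicate 2 lowest and Dll4+/+ replicate 5 highest. The log2 fold change (Dll4+/- minus Dll4+/+, on the log2(FPKM + 1) scale) was -0.16 with a standard error (SE) of 0.26 and a 95% interval of -0.74 to 0.42 (limma, adjusted p = 0.877). Fosb (ENSMUSG00000003545, chromosome 7, 19302696 to 19310051, minus strand), a relative of Fos that also has a truncated isoform, was expressed at a low level.
Fosb measured 0.837, 1.15, 1.77 and 1.40 FPKM in Dll4+/+ and 0.390, 1.56, 1.28 and 2.26 in Dll4+/-, in the same order of replicates. Both the lowest and the highest value came from Dll4+/- lungs. The log2 fold change was 0.00 (SE 0.25, 95% interval -0.57 to 0.58, adjusted p = 0.998 by limma).

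Jun (ENSMUSG00000052684, chromosome 4, 95049034 to 95052222, minus strand) encodes the AP-1 subunit that also forms homodimers, and Junb (ENSMUSG00000052837, chromosome 8, 84974484 to 84978718, minus strand) encodes a weaker activator that competes with it. Jun measured 66.9, 88.4, 92.3 and 95.3 FPKM in Dll4+/+ and 106.7, 70.4, 94.8 and 55.9 in Dll4+/-. The Dll4+/- values enclosed the Dll4+/+ values, and Dll4+/- replicate 1, low for most other members, had the highest Jun. The log2 fold change was -0.09 (SE 0.21, 95% interval -0.57 to 0.38, adjusted p = 0.908 by limma). Junb measured 32.7, 37.3, 47.4 and 37.3 FPKM in Dll4+/+ and 39.3, 28.0, 40.9 and 50.4 in Dll4+/-. The groups overlapped and their means differed by less than the spread, with a log2 fold change of 0.02 (SE 0.18, 95% interval -0.39 to 0.43, adjusted p = 0.983 by limma).

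Atf3 (ENSMUSG00000026628, chromosome 1, 191170296 to 191218039, minus strand) encodes a stress-induced CREB/ATF family factor that pairs with Jun proteins. It measured 2.12, 4.16, 5.68 and 5.10 FPKM in Dll4+/+ and 3.08, 1.61, 5.23 and 5.10 in Dll4+/-. The lowest value of each genotype was Dll4+/+ replicate 3 and Dll4+/- replicate 2, and the groups overlapped. The log2 fold change was -0.17 (SE 0.32, 95% interval -0.90 to 0.55, adjusted p = 0.891 by limma).

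Egr1 (ENSMUSG00000038418, chromosome 18, 34859823 to 34864984, plus strand) encodes a zinc finger activator of growth factor and matrix genes. Its FPKM was 27.9, 41.9, 54.2 and 38.6 in Dll4+/+ and 3.58, 30.6, 31.6 and 27.7 in Dll4+/-. Dll4+/- replicate 1 had 318 fragments where the highest library had 4181, and the other Dll4+/- libraries lay between 27.7 and 31.6 FPKM, around the lowest Dll4+/+ library. The mean was 23.4 ± 13.3 in Dll4+/- and 40.6 ± 10.9 in Dll4+/+ (SD, n = 4), with a log2 fold change of -1.08 (SE 0.58, 95% interval -2.38 to 0.22, unadjusted p = 0.0936, adjusted p = 0.811 by limma, two-sided exact permutation p = 0.0857). Leaving out Dll4+/- replicate 1 moved the log2 fold change to -0.39. Leaving out Dll4+/+ replicate 3 instead separated the groups, with all 4 Dll4+/- libraries below the remaining Dll4+/+ libraries. How many of all genes separate without that library was not counted.

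Egr3 (ENSMUSG00000033730, chromosome 14, 70077203 to 70082614, plus strand) encodes a related zinc finger factor. It measured 0.317, 2.56, 4.19 and 2.84 FPKM in Dll4+/+ and 0.142, 1.26, 2.77 and 1.05 in Dll4+/-. Dll4+/+ replicate 3 and Dll4+/- replicate 1 lay far below the others, and the genotypes overlapped. The log2 fold change was -0.56 (SE 0.46, 95% interval -1.59 to 0.47, adjusted p = 0.811 by limma). It was -0.26 without Dll4+/- replicate 1 and -0.97 without Dll4+/+ replicate 3 (unadjusted p = 0.031, adjusted p = 0.956 by limma), so each of these libraries moved it in its own direction. Its recovered fragments numbered between 4 and 102, at the smallest length that gave whole fragments, 1416 bases against 4406 annotated, so these counts may be wrong by the same factor in each library.
Egr2 (ENSMUSG00000037868, chromosome 10, 67535475 to 67542188, plus strand), known for its part in myelination and hindbrain segmentation, measured 0.454, 1.13, 1.10 and 1.04 FPKM in Dll4+/+ and 0.476, 0.756, 0.609 and 1.31 in Dll4+/-. It reached 1 FPKM in exactly 4 libraries, 3 of them Dll4+/+, which is the least the filter admitted, so that it was tested at the edge of the filter. The groups overlapped, with a log2 fold change of -0.11 (SE 0.19, 95% interval -0.54 to 0.31, adjusted p = 0.882 by limma).

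Nr4a1 (ENSMUSG00000023034, chromosome 15, 101254269 to 101274795, plus strand) encodes a nuclear receptor with roles in endothelial and myeloid cells. It measured 31.7, 80.5, 117.9 and 102.4 FPKM in Dll4+/+ and 11.1, 30.8, 108.2 and 42.3 in Dll4+/-. Dll4+/- replicates 1, 2 and 4 and Dll4+/+ replicate 3 lay low, but Dll4+/- replicate 3 was the second highest of all libraries. The mean was 48.1 ± 42.1 in Dll4+/- and 83.1 ± 37.6 in Dll4+/+ (SD, n = 4), with a log2 fold change of -1.04 (SE 0.63, 95% interval -2.45 to 0.37, adjusted p = 0.811 by limma, two-sided exact permutation p = 0.286). Leaving out Dll4+/- replicate 1 gave -0.51, leaving out Dll4+/+ replicate 3 gave -1.44, and leaving out Dll4+/- replicate 3 gave -1.56 (unadjusted p = 0.0173, adjusted p = 0.702 by limma).

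Ier2 (ENSMUSG00000053560, chromosome 8, 84661331 to 84662852, minus strand) encodes a small nuclear protein induced by growth factors and stress, and was the member with the highest level. It measured 132.9, 116.3, 120.8 and 115.3 FPKM in Dll4+/+ and 78.1, 84.9, 110.3 and 103.5 in Dll4+/-. All 4 Dll4+/- libraries lay below all 4 Dll4+/+ libraries, with 94.2 ± 15.2 against 121 ± 8.08 FPKM (SD, n = 4) and a ratio of 0.776. The log2 fold change was -0.37 (SE 0.14, 95% interval -0.68 to -0.07, unadjusted p = 0.0216, adjusted p = 0.811 by limma, two-sided exact permutation p = 0.0286). With FPKM rescaled to equal library sums (TPM) the groups overlapped, and without Dll4+/- replicate 2 the unadjusted p was 0.0635. In whole lung, fewer cells of a type and less RNA per cell cannot be told apart.

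Across the members, 0 of 10 passed the adjusted threshold of 0.05 for genotype, where 0% of 13610 genes did (limma, smallest adjusted p of any gene 0.277, and 0 genes by voom on recovered fragments). Dll4, with 1 allele replaced, did not pass it either (log2 fold change -0.88, unadjusted p = 0.00125, adjusted p = 0.811 by limma). A member that did not pass is thus not shown to be unchanged. At an unadjusted p of 0.05, 1 member (Ier2) passed, and it was lower, against a background of 3.36% of genes in either direction and 1.91% lower. Likewise 1 member (Ier2) did not overlap between genotypes, against 3.12% of genes in either direction and 1.69% lower in Dll4+/-. In all, 8 members had a log2 fold change below 0 and 2 above it, with a median of -0.17 beside -0.02 for all genes tested. How many of all genes lay below 0 was not counted, so the signs of members and lists are given as a description. The members' directions rest on few libraries, and Ier2 and Egr1 were the 2 that kept their sign under every alternative. Egr2, Egr3 and Nr4a1 each turned in 1 of 17 alternatives, a block on replicate number. With 1 library left out, they turned in 0 of 8 fits each. The plot of log2 fold changes shows that every interval except that of Ier2 spans 0.

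**Figure D2:**
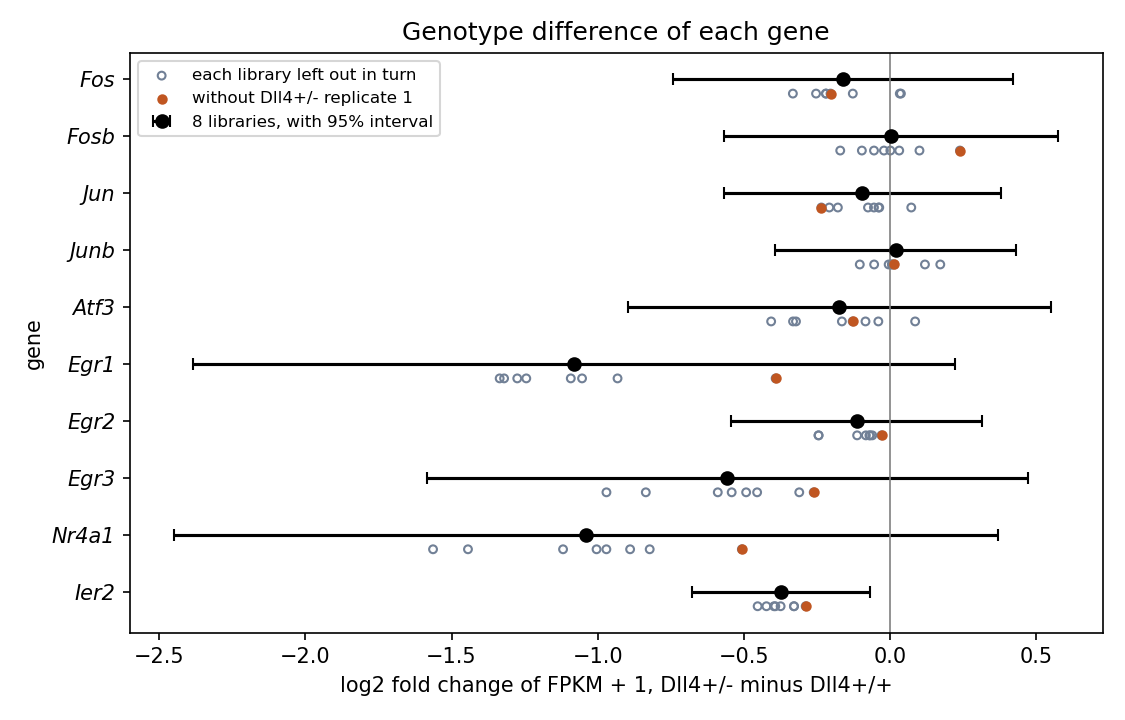
log2 fold change of each member (Dll4+/- minus Dll4+/+, log2(FPKM + 1) scale) with its 95% interval from limma, 4 libraries per genotype. The interval of Ier2, -0.68 to -0.07, lies below 0, while Egr1 and Nr4a1 have the most negative estimates, -1.08 and -1.04, and the widest intervals.

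The members differed in how far they varied between pups. Over the 8 libraries the highest value was 29.4 times the lowest for Egr3, 15.2 for Egr1 and 10.6 for Nr4a1, but 1.91 for Jun, 1.80 for Junb and 1.70 for Ier2. Within genotype, the SD of log2(FPKM + 1) was exceeded by 0.676% of tested genes for Nr4a1, 0.904% for Egr1 and 2.26% for Egr3, and by 69.9% for Ier2, and this scale compresses low levels. The median within-genotype SD was 0.42 for the members and 0.23 for all genes tested. For Egr1 this spread rested on Dll4+/- replicate 1, since the other 7 libraries ran from 27.7 to 54.2 FPKM. Nr4a1 ran from 30.8 to 117.9 FPKM without that library. Ier2 was steadier than most genes within genotype, whereas over all 8 libraries 42.2% of tested genes had a larger SD than it.

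The variation between pups followed a shared pattern for part of the set. Dll4+/- replicate 1 differed from the 8-library mean by -2.61 for Egr1, -2.12 for Nr4a1 and -1.17 for Egr3 on the log2(FPKM + 1) scale, but by 0.37 for Jun, 0.05 for Fos and 0.03 for Junb. Dll4+/- replicate 2 differed from it by -0.87 for Atf3, -0.73 for Nr4a1 and -0.66 for Fos, and Dll4+/+ replicate 3 by -0.96 for Egr3 and -0.69 for Nr4a1. Low values were thus found in both genotypes, and Dll4+/- replicate 4 was also low for Jun (-0.55), Egr3 (-0.32) and Nr4a1 (-0.28). Dll4+/+ replicate 5 was above the mean for all 10 members. Of 45 member pairs, 41 had a positive Pearson r over the 8 libraries, with the highest for Egr3 and Nr4a1 (0.94), Fos and Atf3 (0.90) and Fos and Junb (0.88). Egr3 with Nr4a1 and Fos with Atf3 kept r at 0.92 without Dll4+/- replicate 1. Others rested on that library, such as Fosb and Egr1 (0.74, and 0.11 without it). Jun and Egr1 changed from -0.28 to 0.71 when it was left out. These correlations share libraries and depth and are given as a description.

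**Figure D3:**
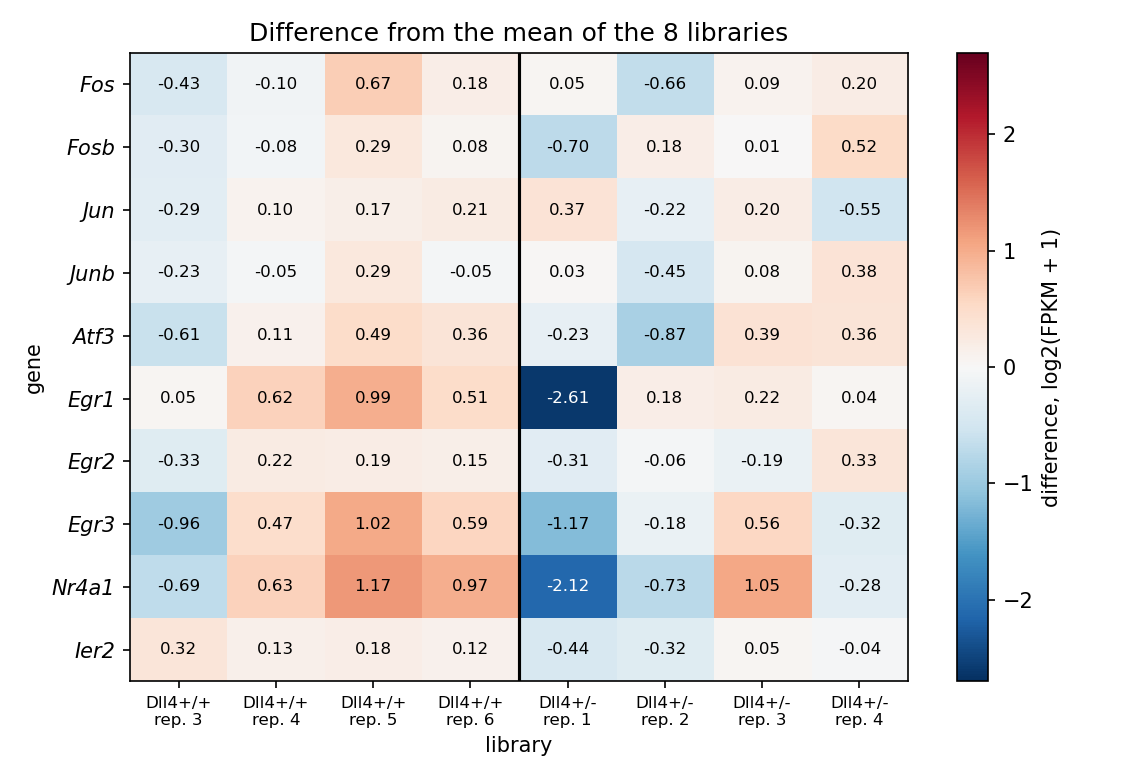
Difference of each member from its mean over 8 libraries (log2(FPKM + 1) scale) in each library. Dll4+/- replicate 1 is low for Egr1 (-2.61), Nr4a1 (-2.12) and Egr3 (-1.17) but not for Jun (0.37), and Dll4+/+ replicate 5 is above the mean for all 10 members.

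The libraries also differed in cell markers. In Dll4+/- replicate 1 the summed FPKM of 8 neutrophil markers was 1403, against 90.2 to 194 in the other libraries, and that of 12 cell cycle genes was 48.1, against 299 to 401. Endothelial markers summed to 1365 FPKM there and to 704 in Dll4+/- replicate 4, the lowest of the libraries, whose alveolar type II markers summed to 40606. Dll4+/+ replicate 3 had the highest sums of erythroid markers (21860 FPKM, against 10289 to 14891 in the others) and macrophage markers (1084 FPKM). The macrophage sum did not hold for most of its markers. Their median difference from the 8-library mean was 0.02 in Dll4+/+ replicate 3 and 0.11 in Dll4+/+ replicate 4. Cardiac muscle markers ranged from 58.4 in Dll4+/- replicate 2 to 786 in Dll4+/- replicate 3. Of 8 listed macrophage markers, 7 had values, and no marker of these types with values was at 0 in every library. The part of these markers in the levels of Egr1, Nr4a1, Egr3 and Ier2 was not tested.

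The 5 lists of related genes are described beside the members, and 0 genes of any list passed the adjusted threshold. Of 24 other immediate early transcription factors, 21 were tested, of which 12 lay above 0 and 9 below it (median 0.02), and 3 were lower at an unadjusted p of 0.05, where 1.91% of all genes tested were. These were Klf2, a flow-responsive endothelial factor (-0.50, SE 0.18), Crem, a CREB family factor (-0.34, SE 0.12), and Id1, an inhibitor of basic helix-loop-helix factors (-0.31, SE 0.13), with an adjusted p of 0.811 each by limma. Crem measured 7.97, 7.10, 7.44 and 7.61 FPKM in Dll4+/+ and 4.96, 5.85, 6.80 and 5.39 in Dll4+/-, and Id1 217, 165, 165 and 167 against 161, 133, 143 and 136. In both genes the genotypes did not overlap (two-sided exact permutation p = 0.0286), as in 1.69% of all genes tested in this direction. Myc, a growth regulator, had a log2 fold change of -0.32, and the largest positive values were for Cebpd (0.69), Fosl2 (0.44) and Bhlhe40 (0.42). Cebpd reached 226 FPKM in Dll4+/- replicate 1 alone.

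Of 40 immediate early feedback and signalling genes, 38 were tested, 22 above 0 and 16 below it (median 0.03), 0 at an unadjusted p of 0.05. The lowest were Plk2 (-0.54), Dusp10 (-0.50), a MAP kinase phosphatase, and Gadd45a (-0.40). The highest were Edn1, which encodes the vasoconstrictor endothelin 1 (1.32), Gadd45g (0.58) and Gadd45b (0.55). Edn1 was 77.7 FPKM in Dll4+/- replicate 1 and 18.6 in Dll4+/- replicate 4 but between 3.59 and 6.74 in the other libraries. All 25 upstream regulators were tested, 12 above 0 and 13 below it (median -0.04). Rps6ka1, a kinase that phosphorylates CREB and serum response factor, was higher at an unadjusted p of 0.05, with a log2 fold change of 0.32 (SE 0.14, adjusted p = 0.811 by limma). Its genotypes were barely apart, with the lowest Dll4+/- library at 12.64 FPKM and the highest Dll4+/+ library at 12.62. Those of Mapk9 (0.09) did not overlap either, where 3.12% of all genes did not overlap in either direction. The lowest were Srf (-0.20), Creb1 (-0.17) and Map2k2 (-0.16), and the highest besides Rps6ka1 were Mef2d (0.26) and Mkl2 (0.24).

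Among 17 AP-1 dimer partners and competitors, 16 were tested, 6 above 0 and 10 below it (median -0.04). Batf3 (-0.42), Batf (-0.37) and Maf (-0.24) were the lowest, and Fosl2 (0.44), Bach1 (0.30) and Jdp2 (0.29) the highest. Of 13 heat shock genes, which report protein stress, 12 were tested, 2 above 0 and 10 below it (median -0.11). Hspa5 (-0.54), Hspe1 (-0.37) and Dnaja1 (-0.31) were the lowest. Hspb1 was highest (0.38) through a level of 194 FPKM in Dll4+/- replicate 1. Neither list had a gene at an unadjusted p of 0.05. Without Dll4+/- replicate 1 the list medians turned to -0.04 for the other transcription factors, -0.04 for the feedback genes and 0.03 for the upstream regulators, so these directions rest on that library.

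**Figure D4:**
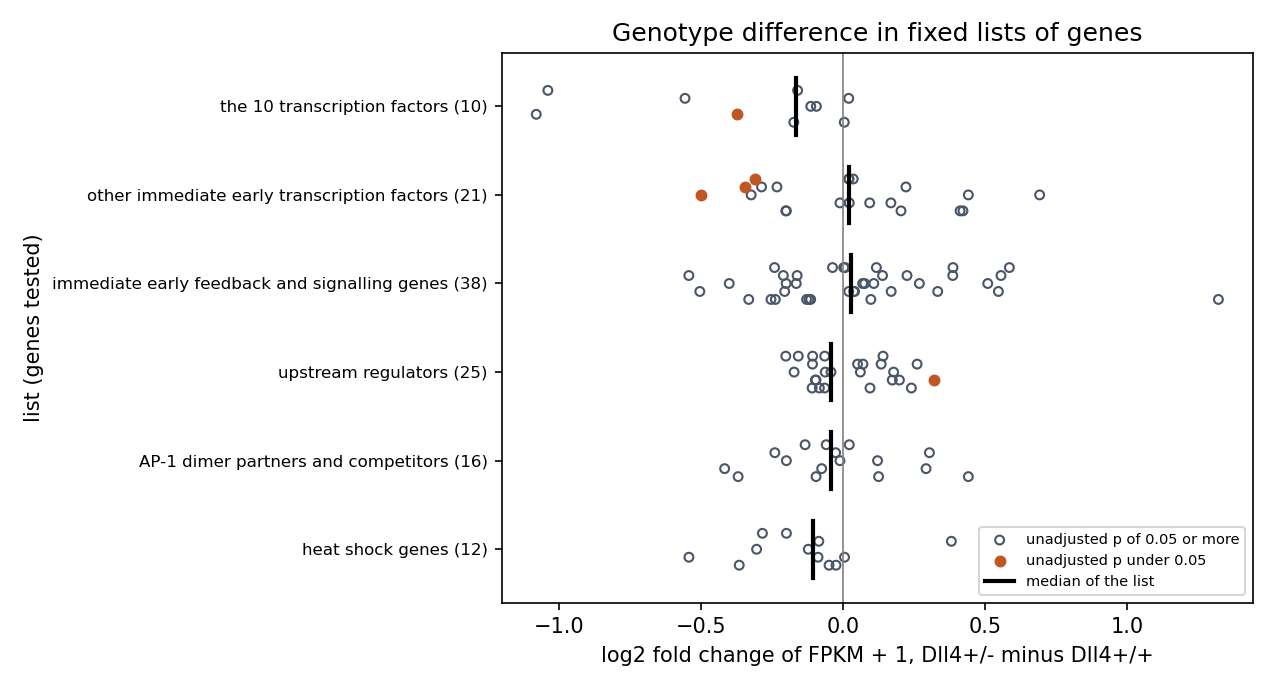
log2 fold change (Dll4+/- minus Dll4+/+, log2(FPKM + 1) scale) of each tested gene in the members and the 5 related lists, 4 libraries per genotype, with the median of each list. The medians lie between -0.17 for the members and 0.03 for feedback and signalling genes.

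The genes whose levels most resembled the mean standardized level of the members over the 8 libraries were Megf6 (Pearson r = 0.94), Sema5b (0.94), Tapbpl (0.92), Gm13727 (0.91), Msrb3 (0.91), Ttc16 (0.91) and Spry4 (0.90). They were followed by Slc6a17 (0.89), Gm21817 (0.89), 2610203C20Rik (0.88), Srebf2 (0.88) and Slc12a7 (0.88). Spry4, an inhibitor of receptor tyrosine kinase signalling that is itself on the feedback list, measured 17.2, 30.8, 34.6 and 33.0 FPKM in Dll4+/+ and 19.3, 20.1, 35.8 and 24.1 in Dll4+/-. The most opposite genes were Loh12cr1 (-0.92), Anapc16 (-0.91), 4933439C10Rik (-0.89) and Poldip2 (-0.88). The mean standardized level was low in Dll4+/- replicates 1 and 2 and Dll4+/+ replicate 3 (-0.95, -0.74 and -0.67) and between 0.28 and 0.96 in the other libraries, so that r mostly describes this division. The likeness is a description over 8 libraries.

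Between the labelled sexes, 0 members passed the adjusted threshold, where 0.00735% of genes did, and 1 (Egr3) passed an unadjusted p of 0.05, where 10.5% did. Egr3 was lower in libraries labelled male, with a log2 difference (male minus female, limma with genotype in the model) of -0.93 (SE 0.36, unadjusted p = 0.0316, adjusted p = 0.465). In all, 9 of 10 members had a difference below 0, from Nr4a1 (-1.06) to values near 0 for Ier2 (-0.02) and Fos (-0.0045). Only Junb (0.06) lay above it, and it was -0.11 without the library labelled female Dll4+/- replicate 2. The share of all genes below 0 was not counted, so these signs are given as a description. Without the library labelled female Dll4+/- replicate 2 the differences were -1.08 for Egr3, -0.92 for Egr1 and -1.36 for Nr4a1, with an adjusted p of 0.811 each by limma. The lowest values of Egr3, Egr1 and Nr4a1 came from Dll4+/- replicate 1, which is labelled male, and the sex difference was not tested without that library.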

How the data were processed

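Total RNA from right lungs was made into poly-A selected libraries that were sequenced as paired ends by the authors, whose processing notes name CASAVA, STAR and GRCm38.p4 without versions. The authors deposited FPKM values, which normalize fragments to exon length and library size, for 35275 genes, and how reads were assigned to strand is not stated in the sources, so reads of overlapping or antisense genes cannot be told apart. Zeros replaced by 0.005 in 239 genes of the deposited FPKM table were set back to 0. The authors' own fold changes, p-values and group means were not used. The 8 FPKM columns were matched to samples by title, and 2 of the 10 samples were not analysed here.

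Library depth was recovered from the FPKM steps, with whole fragments (tolerance 0.01) at the annotated exon length for 1454 of 13610 tested genes. The remaining 12156 were assigned the shortest length yielding whole fragments, so their counts may be wrong by a constant factor. Gene positions came from GENCODE M21 (GRCm38) and promoter windows from RefSeq (GRCm38.p6). Genes that reached 1 FPKM in 4 or more libraries were tested with limma (version 3.58.1, R 4.3.3) on log2(FPKM + 1), with empirical Bayes moderation and a mean-variance trend, and p-values were adjusted by Benjamini-Hochberg over all 13610 genes. The scripts were tested on simulated data. For single genes, exact permutation tests (two-sided) were run. Libraries came from separate pups, so p-values measure the spread between animals, and litters were not modelled. All 10 members were named, together with the list members under an unadjusted p of 0.05 or with the 3 highest and lowest log2 fold changes, and the 12 most and 4 least similar genes. The members and lists were chosen with earlier results of these data known. Alternatives changed the pseudocount, filter, scaling, test, library weights, sex term, replicate block or libraries.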

Additional observations from a re-analysis of the deposited data

Results flagged for a closer look

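In groups of 4 libraries, the lowest or highest value was compared with its nearest neighbour on the log2(FPKM + 1) scale, and 2 of 20 groups had a gap that was a large share of the group's range, where chance flags about 1 in 20. For Egr1, which encodes a growth-responsive zinc finger factor, Dll4+/- replicate 1 lay apart at 3.58 FPKM against 27.7 to 31.6 in the other Dll4+/- libraries, a gap of 0.9363 of the range. For Egr2, Dll4+/+ replicate 3 lay apart at 0.454 FPKM against 1.04 to 1.13 in the other Dll4+/+ libraries, a gap of 0.8808 of the range.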

How the results depend on the processing

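Over 17 alternatives per member, Ier2 and Egr1 kept their sign in each, and the smallest adjusted p of a member by limma was 0.626. At an unadjusted p of 0.05, the members passing numbered 3 with library weights (Ier2, Egr1 and Egr2) and 0 with the replicate block, and between 0 (without Dll4+/- replicate 2) and 2 (without Dll4+/+ replicate 3 or without Dll4+/- replicate 3) when 1 library was left out. Members whose genotypes did not overlap numbered 0 with TPM scaling, and between 1 and 2 (without Dll4+/+ replicate 3) when 1 library was left out. The share of all genes without overlap was not counted under these alternatives, and groups separate more easily with fewer libraries. Genes at an unadjusted p of 0.05 numbered 457, but 933 of 24743 genes (3.77%) with no filter and 775 with library weights, and between 230 (without Dll4+/+ replicate 3) and 957 (without Dll4+/- replicate 2) with 1 library left out. Genes passing the adjusted threshold numbered 0, but 3 with library weights and 16 with the replicate block.

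Under the replicate block, Ier2 was -0.22 with an unadjusted p of 0.506 by limma, and signs turned for Fos (0.41), Egr2 (0.13), Egr3 (0.36), Atf3 (0.62) and Nr4a1 (0.42). Only replicate numbers 3 and 4 are shared by both genotypes, and the deviations of libraries with the same number correlated at -0.23 and -0.06. With 1 pair of libraries for each number, these values cannot show whether the numbers pair the samples. Fosb, near 0, turned with a pseudocount of 0.1 (-0.076), TPM scaling (-0.00027) and voom (-0.081). Egr3 was -0.92 with a pseudocount of 0.1 and -1.03 with voom. Junb turned with library weights (-0.21) and without both Dll4+/- replicates 1 and 4 (-0.17). With 1 library left out, log2 fold changes ranged from -0.33 to 0.037 for Fos, -0.17 to 0.24 for Fosb, -0.24 to 0.072 for Jun, -0.10 to 0.17 for Junb and -0.41 to 0.086 for Atf3. The cause of these changes was not tested. Motif shares over bases before the start alone were lower, such as 17.8% for TGACG. Among the members, recovered fragments were fewest for Egr3 (4 to 102 a library), Egr2 (24 to 89), Fosb (29 to 194) and Atf3 (70 to 232). Their counts rest on the shortest length that gave whole fragments and may be wrong by a constant factor.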
